A study of Mus musculus with 18 samples.

Results

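Siglecs and related inhibitory receptors of myeloid cells were examined as 10 genes: Cd33, Siglech, Siglece and Siglec1, the paired immunoglobulin-like and leukocyte immunoglobulin-like receptor genes Pirb and Lilrb4a, and Sirpa, Cd200r1, Cd300a and Pilra. They were chosen by name, as the rows of the deposited count table whose Ensembl identifier belongs to these genes, and make up 10 of the 50686 gene identifiers in the table. Of these, 9 passed the low-count filter and were among the 13447 genes tested. Siglech did not pass.

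Messenger RNA was counted in primary microglia cultured from the forebrains of C57BL/6 mice at postnatal day 2, in 3 libraries for each of 6 genotypes. The genotypes were Tbk1+/-;Tak1ΔM/+;Ripk1D138N/+ (here triple-mutant), Tbk1+/-;Tak1ΔM/+ (double heterozygous), Tbk1+/-;Ripk1D138N/D138N (D138N-homozygous), Tak1ΔM/+, Tbk1+/- and WT. TBK1 and TAK1 are kinases that restrain the kinase RIPK1, and D138N removes the catalytic activity of RIPK1. Tak1, whose gene symbol is Map3k7, carries a ΔM allele whose Cre driver the labels do not name. Nothing in the labels tells whether replicate libraries stem from different mice or dishes, so p-values measure the spread between these libraries, which may be technical.

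Many, but not all, receptors of this kind hold inhibitory tyrosine motifs in their cytoplasmic tails. When a ligand is bound, Src-family kinases phosphorylate the motifs, and phosphatases such as SHP-1 (Ptpn6), SHP-2 (Ptpn11) and SHIP-1 (Inpp5d) are recruited and dampen activating signals. Siglecs bind sialic acids, SIRPα binds CD47, and CD200R1 binds CD200. Many of the receptors have an activating relative encoded nearby that signals through the adaptors DAP12 (Tyrobp) or the Fc receptor γ chain (Fcer1g). In the human brain CD33 and PILRA are known as Alzheimer's disease risk genes expressed in microglia.

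The libraries held between 8016559 and 22989116 counts. Tbk1 was between 50.5 and 66.0 CPM (counts scaled to the TMM-adjusted library size) in 7 of the 12 libraries labelled Tbk1+/-, and between 88.0 and 149 CPM in the 6 libraries of the Tak1ΔM/+ and WT genotypes. The other 5 libraries labelled Tbk1+/-, all 3 triple-mutant libraries and D138N-homozygous replicates 1 and 3, had 107 to 131 CPM. Their labels and their Tbk1 level differ, so they are called libraries labelled triple-mutant or D138N-homozygous, and directions drawn from them carry that limit. Map3k7 had 6.57 to 15.8 CPM in double heterozygous libraries, 7.34 to 9.98 CPM in Tak1ΔM/+ libraries and 10.4 to 19.2 CPM in WT libraries. Lyz2, the lysozyme gene of myeloid cells, chosen after its values were seen, had 38290 to 42590 CPM in libraries labelled triple-mutant and 8000 to 8923 CPM in double heterozygous libraries. It had 28520 to 42280 CPM in libraries labelled D138N-homozygous, 13580 to 20670 CPM in Tak1ΔM/+ libraries, 21910 to 39480 CPM in Tbk1+/- libraries and 35040 to 39360 CPM in WT libraries. The libraries labelled triple-mutant carry the Tak1ΔM/+ label and lay apart from both other genotypes with that label. Counts over a whole gene do not show a point mutation such as D138N. Ripk1 was called higher in double heterozygous than in WT libraries, with 49.0 to 71.0 CPM in double heterozygous and at most 23.8 CPM in WT libraries (log2 fold change 1.55, adjusted p = 0.0433).

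The microglial markers Csf1r (1619 to 2658 CPM) and Cx3cr1 (262 to 556 CPM) were high in the 18 libraries, while P2ry12 (2.97 to 17.4 CPM) and Tmem119 (1.45 to 6.56 CPM) were low. The summed level of 7 microglial markers was 2561 to 2790 CPM in double heterozygous libraries and 3004 to 3257 CPM in WT libraries. In that comparison 2 of the 7 were called, Itgam (log2 fold change -0.94, adjusted p = 0.00879) and Ptprc (-0.82, adjusted p = 0.00171), both lower. Cx3cr1 and P2ry12 also averaged lower without a call. Csf1r (1993 CPM against 2100 CPM in WT) and Tmem119 (3.62 CPM against 3.78 CPM in WT) differed little. Aif1 averaged higher, at 74.7 CPM in double heterozygous and 53.3 CPM in WT libraries. In bulk RNA, fewer cells of a type and less RNA per cell cannot be told apart. Markers of border macrophages and monocytes summed to 1092 to 1127 CPM in double heterozygous libraries and 834 to 1098 CPM in WT libraries, mostly from Ms4a7, Mrc1 and Pf4, and Ly6c2 and Plac8 did not exceed 0.237 CPM. Oligodendrocyte-lineage markers summed to 71.6 to 84.7 CPM in double heterozygous and 62.3 to 73.3 CPM in WT libraries, with a median log2 fold change of 1.28 over 7 genes. Olig2 averaged 4.92 CPM in double heterozygous and 0.703 CPM in WT libraries, and Pdgfra 7.35 CPM in double heterozygous and 1.27 CPM in WT libraries. Astrocyte markers summed to 20.7 to 28.3 CPM in double heterozygous and 36.2 to 54.1 CPM in WT libraries, with a median of -0.05 over the 5 tested. That sum was lower through Aldh1l1 and Aldoc, while Gfap averaged 1.32 CPM in double heterozygous and 1.35 CPM in WT libraries. Fibroblast, mural and endothelial markers summed to 2.24 to 2.82 CPM in double heterozygous and 6.32 to 37.7 CPM in WT libraries. None of the genes of these 3 lists was called in this comparison, and the part of these values in the results was not tested. The share of counts from mitochondrially encoded mRNAs fell on either side of a gap. It was 0.367% to 0.671% in 8 libraries (triple-mutant replicate 1, all 3 double heterozygous libraries, D138N-homozygous replicates 1 and 3, Tak1ΔM/+ replicate 1 and WT replicate 3) and 1.05% to 2.2% in the other 10.

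The promoters of Cd33 and Pilra are shown because these were the 2 of the 10 genes called lower in double heterozygous than in WT cells. Each sequence is the 250 bases before the RefSeq transcription start on GRCm38.p6, on the strand of the gene, with motif matches in capitals. Cd33 lies at chr7:43533172-43533421 and Pilra at chr5:137836279-137836528, both on the minus strand. The Cd33 window falls inside the longer GENCODE model of the gene (chr7:43524216-43544428), and the Pilra model is at chr5:137821952-137836281.
Cd33: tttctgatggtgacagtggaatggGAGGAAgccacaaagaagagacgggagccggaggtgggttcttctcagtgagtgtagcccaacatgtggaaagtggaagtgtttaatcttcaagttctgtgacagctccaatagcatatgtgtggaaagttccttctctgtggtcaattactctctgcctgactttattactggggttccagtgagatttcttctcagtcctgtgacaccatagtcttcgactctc
Pilra: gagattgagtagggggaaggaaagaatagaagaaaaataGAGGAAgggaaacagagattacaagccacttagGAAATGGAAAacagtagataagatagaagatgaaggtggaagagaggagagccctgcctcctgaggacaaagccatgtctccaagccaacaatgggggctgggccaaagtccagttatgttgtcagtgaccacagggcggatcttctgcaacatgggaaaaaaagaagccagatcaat
3 motifs were searched on both strands: GAGGAA, a core of sites for PU.1, the ETS factor of myeloid cells, the core of interferon-stimulated response elements, and TGANTCA, the AP-1 site. GAGGAA was found once in the Cd33 window, 226 bases before the start, and once in the Pilra window, 211 bases before it. The interferon-stimulated response element core was found in the Pilra window, 178 bases before the start, and TGANTCA in neither. Over the 32851 RefSeq promoter windows of this length, 23.3% held GAGGAA, 2.98% held the interferon-stimulated response element core and 6.75% held TGANTCA. RefSeq windows were found for 6 of the 10 genes. In the other 4 of these windows, GAGGAA occurred 3 times before Siglece, 3 times before Pirb, 1 time before Cd300a and 0 times before Siglech.

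By position (GENCODE M21, mm10), the genes lie on several chromosomes. Cd33 and Siglece (chr7:43651070-43660161), both on the minus strand, are near each other on chromosome 7, which also holds Siglech (chr7:55768178-55778925) and Pirb (chr7:3711409-3720391). Siglec1 (chr2:131069220-131086765) and Sirpa (chr2:129592835-129632228) lie on chromosome 2. Lilrb4a is at chr10:51490956-51496611, Cd200r1 at chr16:44765736-44794978 and Cd300a at chr11:114890041-114904654.

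Sirpa was the most abundant of the 10 in WT microglia. Per kilobase of exon, its level was 415 ± 33.9 CPM per kb (SD, n = 3). Cd200r1 (42.6 ± 8.18 CPM per kb) and Cd300a (38.9 ± 3.21) followed, with overlapping libraries. Lilrb4a (18.7 ± 16.4), Pirb (18.6 ± 4.45), Siglec1 (12.8 ± 5.89) and Cd33 (10.7 ± 3.69) came next, and each overlapped its neighbour in this order. Pilra (1.65 ± 0.261) and Siglece (1.48 ± 0.335) were low and overlapped each other, and Siglech was at 0.0873 ± 0.151 CPM per kb.

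**Figure D1:**
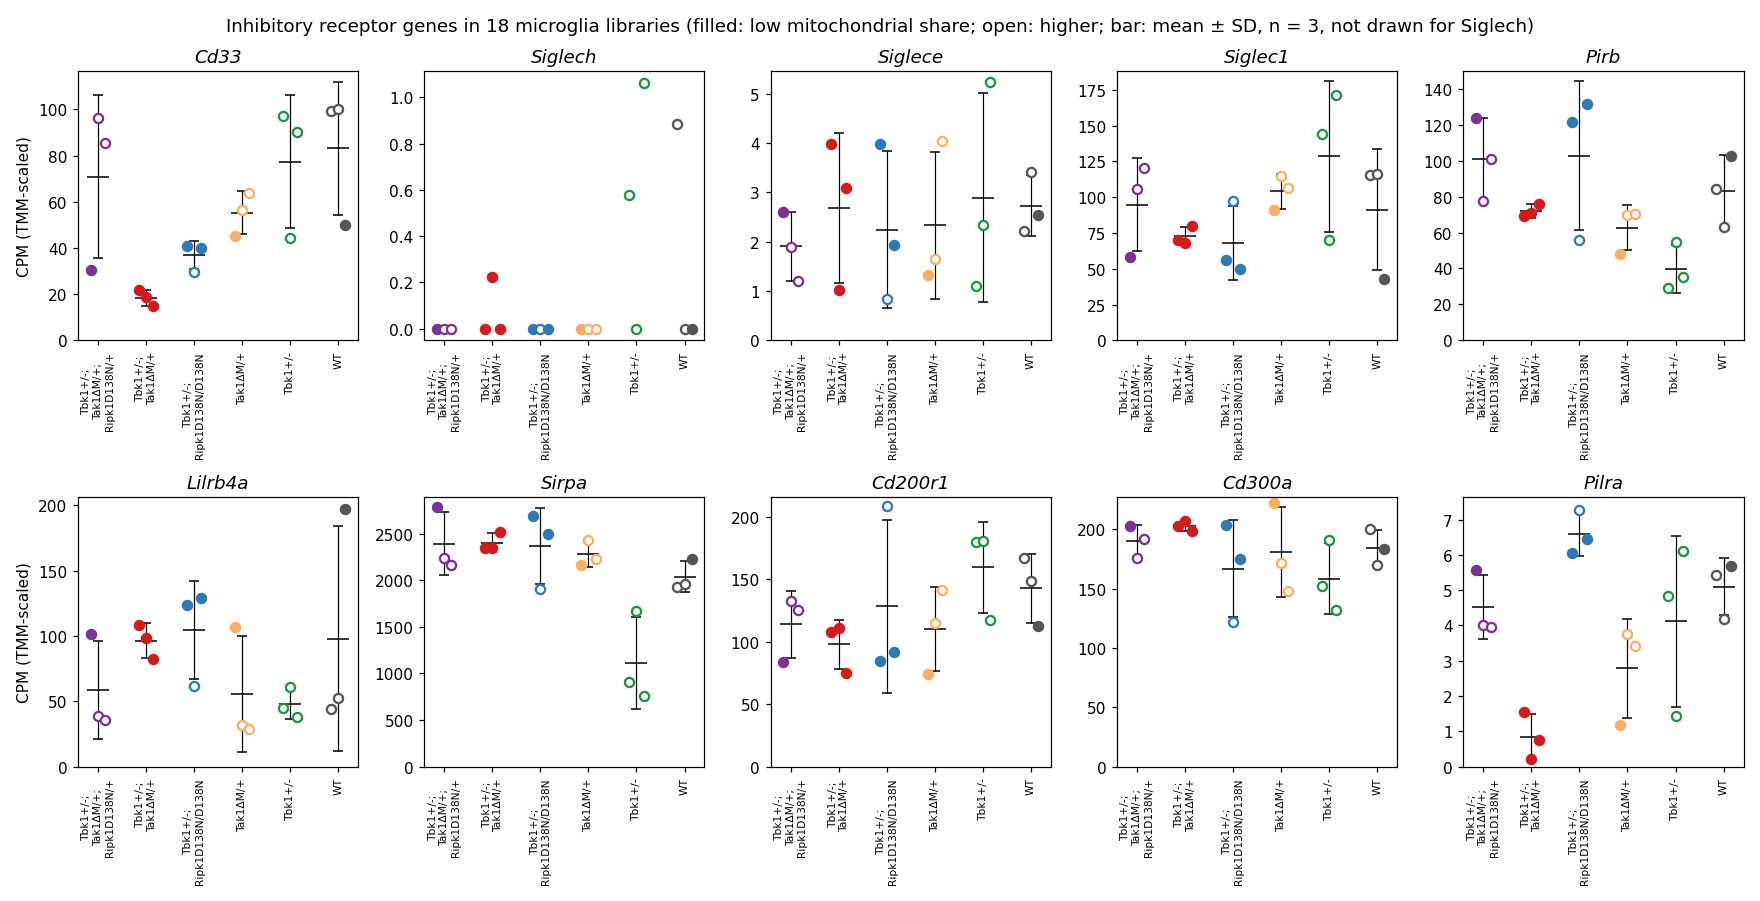
Level of each of the 10 genes (y axis, TMM-scaled CPM, from 0) in each library, by genotype (x axis, WT at the right). Filled points are libraries with a low mitochondrial share and open points those with a higher share, and bars give the mean ± SD of 3 libraries. The 3 double heterozygous libraries are the lowest for Cd33, between 14.7 and 21.7 CPM, and Lilrb4a is at 82.1 CPM or more in each filled point.

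In the test across the 6 genotypes, 4 of the 9 genes tested were called at an adjusted p under 0.05 (edgeR's quasi-likelihood test with Benjamini-Hochberg adjustment), against a background of 7.18% of all genes tested. They were Cd33 (adjusted p = 0.0125), Sirpa (0.0222), Pirb (0.0391) and Pilra (0.0489). With the mitochondrial share as a covariate none of the 4 was called, with adjusted p between 0.112 and 0.175. Of the 18 fits that each left out 1 library, Cd33 was called in 16 (not without double heterozygous replicate 2 or 3), Sirpa in 13 (not without Tbk1+/- replicate 1 or 3 or any double heterozygous library), Pirb in 7 and Pilra in 2 (kept without Tak1ΔM/+ replicate 1 or Tbk1+/- replicate 2).

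Cd33, a Siglec that is inhibitory in humans and whose cytoplasmic tail differs in the mouse, had its lowest levels in double heterozygous microglia. It had 21.7, 18.8 and 14.7 CPM in double heterozygous libraries, against 99.3, 100.1 and 50.0 CPM in WT libraries. The 15 libraries of the other genotypes ranged from 29.8 to 100.1 CPM, so the double heterozygous libraries did not overlap with any of them. Cd33 had 30.5, 96.4 and 85.7 CPM in libraries labelled triple-mutant and 40.8, 29.8 and 40.0 CPM in those labelled D138N-homozygous. It had 45.3, 56.4 and 63.9 CPM in Tak1ΔM/+ libraries and 97.4, 44.5 and 90.4 CPM in Tbk1+/- libraries. Within the triple-mutant, Tbk1+/- and WT genotypes, 1 library stood well below the other 2. In the triple-mutant and WT genotypes this was the library of low mitochondrial share, while all Tbk1+/- libraries had a higher share. Of the 4 genotypes with libraries on both sides of the mitochondrial gap, low-share libraries had less Cd33 in 3 and more in 1. All double heterozygous libraries were on the low side.

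The mean Cd33 level in double heterozygous cells was 22.1% of that in WT cells (18.4 ± 3.52 CPM against 83.2 ± 28.7 CPM, SD, n = 3 each), a log2 fold change of -2.18 (SE 0.378, adjusted p = 0.00346 in edgeR's fit). Cd33 and Pilra were the 2 genes of the 9 called in that comparison, both lower, where 6.07% of all genes passed the same threshold and 3.9% did so in the lower direction. The median log2 fold change of the 9 was -0.21, against 0.00 for all genes tested. The Cd33 call held under all 17 alternatives run, with log2 fold changes between -2.45 and -1.49 and adjusted p up to 0.0497, the value with the mitochondrial share as a covariate. Among the 8 libraries of low mitochondrial share, the 3 double heterozygous ones had 14.7 to 21.7 CPM and the other 5 had 30.5 to 50.0 CPM. The summed level of Y-linked genes, not TMM-scaled, was 75.9 to 99.5 CPM in these 3 and 0 to 3.02 CPM in the other 5. Within this side, double heterozygosity and the Y-linked level therefore cannot be told apart. The fit within those 8 libraries, which hold 1 WT library that is assumed to vary like the others, gave -1.49 (adjusted p = 0.00313).

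Against the single heterozygotes, Cd33 was lower in double heterozygous cells than in Tak1ΔM/+ cells (log2 fold change -1.58, SE 0.373, adjusted p = 0.0299) and than in Tbk1+/- cells (-2.07, SE 0.377, adjusted p = 0.00177). The Y-linked genes summed to 75.9 to 99.5 CPM in the double heterozygous libraries and 0 to 3.02 CPM in the Tak1ΔM/+ libraries. Genotype and Y-linked level therefore cannot be told apart between these groups, and the test of non-additivity below uses the same libraries. Cd33 was the 1 gene of the 9 called against Tak1ΔM/+, where 2.79% of all genes were called and 2.05% called lower. That call was lost in 5 of the 6 fits without 1 library (with each double heterozygous library left out, and with Tak1ΔM/+ replicate 2 or 3 left out), with log2 fold changes from -1.73 to -1.43. It was also lost with the mitochondrial share as a covariate (-1.14, adjusted p = 0.175) and with limma-voom (adjusted p = 0.103). The call against Tbk1+/- was lost with that covariate (-1.22, adjusted p = 0.223). Neither single heterozygote was called against WT for Cd33, with log2 fold changes of -0.59 in Tak1ΔM/+ cells (95% interval -1.37 to 0.19) and -0.10 in Tbk1+/- cells (-0.88 to 0.67). The test of non-additivity, which sets the Tbk1 allele's effect in Tak1ΔM/+ cells against its effect in WT cells, gave -1.48 for Cd33 (unadjusted p = 0.00999, adjusted p = 0.15) and was not called.

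In the libraries labelled triple-mutant Cd33 was higher than in double heterozygous libraries, by a log2 fold change of 1.95 (SE 0.376, adjusted p = 0.00984). Cd33 and Pilra were the 2 of the 9 called there, both higher, where 2.45% of all genes were called and 1.84% called higher. The Cd33 level of the library labelled triple-mutant with a low mitochondrial share was 30.5 CPM and those of the other 2 were 96.4 and 85.7 CPM. Within the 8 libraries of low mitochondrial share the fold change was 0.72 (adjusted p = 0.175), and the call was also lost without double heterozygous replicate 2 or 3 or without triple-mutant replicate 2 or 3 (adjusted p from 0.0581 to 0.0643). The double heterozygotes are shared by this comparison and the one with WT. The Y-linked genes summed to 0 to 61.5 CPM in libraries labelled triple-mutant and 75.9 to 99.5 CPM in double heterozygous ones. For every gene in this comparison, genotype and Y-linked level therefore cannot be told apart. Against WT, Cd33 in libraries labelled triple-mutant was not called (-0.23, 95% interval -1.01 to 0.55).

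**Figure D2:**
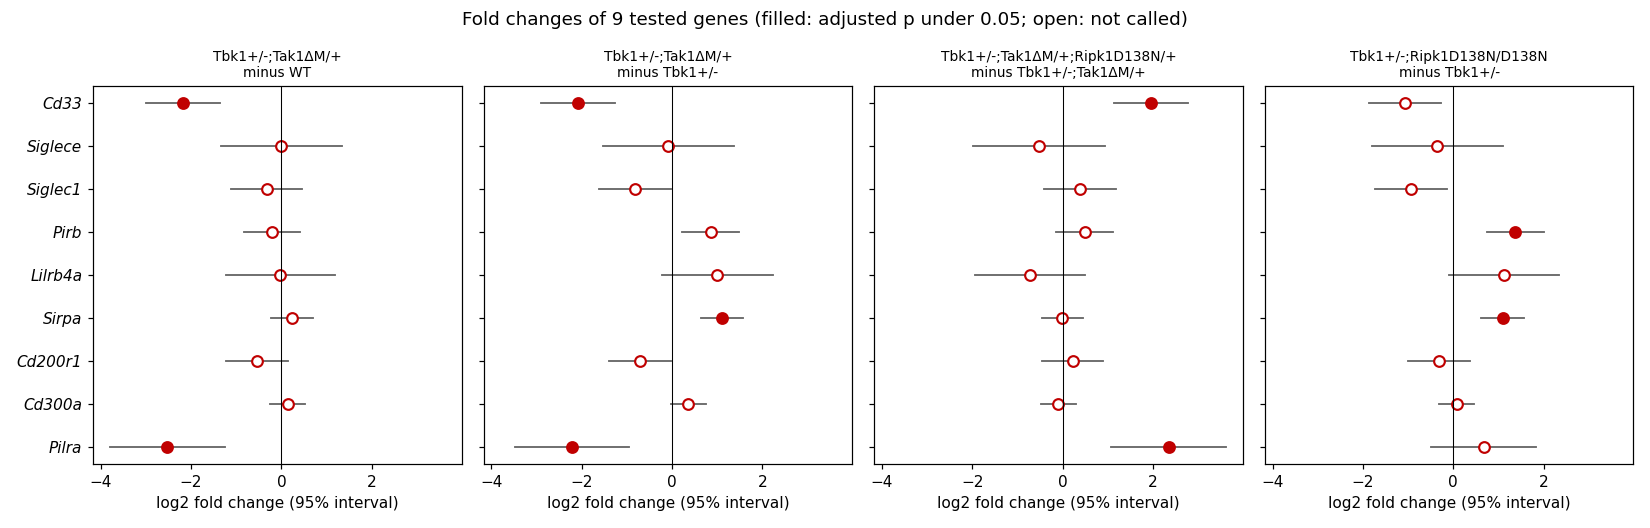
Log2 fold changes of the 9 tested genes with 95% intervals (x axis) in 4 comparisons (panels, named above each). Filled points passed an adjusted p of 0.05. Cd33 and Pilra are below 0 in double heterozygous cells against WT and against Tbk1+/-, and above 0 in libraries labelled triple-mutant against double heterozygous ones.

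Pilra encodes an inhibitory receptor that recognises sialylated O-glycans on partner proteins. It had 1.54, 0.225 and 0.747 CPM in double heterozygous libraries, from 29, 2 and 15 counts, against 5.45, 4.18 and 5.69 CPM in WT libraries, from 86, 71 and 98 counts. It had 5.57, 4.02 and 3.97 CPM in libraries labelled triple-mutant, and 6.05, 7.28 and 6.44 CPM in those labelled D138N-homozygous. In Tak1ΔM/+ libraries it had 1.19, 3.75 and 3.43 CPM, and in Tbk1+/- libraries 4.82, 1.43 and 6.10 CPM. The double heterozygous libraries lay below all WT libraries and overlapped with Tak1ΔM/+ replicate 1 and Tbk1+/- replicate 2.

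Pilra was lower in double heterozygous cells than in WT cells by a log2 fold change of -2.52 (SE 0.585, adjusted p = 0.0171) and than in Tbk1+/- cells by -2.21 (SE 0.582, adjusted p = 0.0162), and higher in libraries labelled triple-mutant than in double heterozygous ones by 2.35 (SE 0.583, adjusted p = 0.0386). The call against WT was lost without double heterozygous replicate 2 (adjusted p = 0.0611) or replicate 3 (0.0847), with the mitochondrial share as a covariate (-2.29, adjusted p = 0.0919) and with limma-voom (adjusted p = 0.052). Within the 8 libraries of low mitochondrial share, which hold 1 WT library, the log2 fold change against WT was -2.70. As for Cd33, double heterozygosity and the Y-linked level cannot be told apart there. The call against Tbk1+/- held in 8 of 15 alternatives, and was lost without Tbk1+/- replicate 1 or 3 or double heterozygous replicate 2 or 3. The call for libraries labelled triple-mutant against double heterozygous ones held in 5 of 15, and was lost without double heterozygous replicate 2 or 3 or without any of the libraries labelled triple-mutant. That call was also lost with the Y-linked level as a covariate, a level that did not overlap between these groups. Exons of Pilra overlap those of Zcwpw1 on the opposite strand, and the kit did not mark strand, so reads of the 2 genes cannot be told apart there. The activating relatives Pilrb1 and Pilrb2 averaged 0.531 and 0.318 CPM in double heterozygous cells and 0.369 and 0.259 CPM in WT cells. Neither was called.

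Siglec1 and Siglece were not called in any comparison of the edgeR fit over 18 libraries, and Siglech was not tested in it. Some alternative fits called Siglec1, and the fit with no low-count filter called Siglech across genotypes. Siglec1 (sialoadhesin), which binds sialylated ligands on other cells and is known as an interferon-induced gene of macrophages, had 70.4, 67.9 and 79.9 CPM in double heterozygous libraries and 115, 116 and 42.7 CPM in WT libraries. The WT libraries lay on either side of the double heterozygous ones, and the log2 fold change was -0.33 (95% interval -1.12 to 0.47). Within the 8 libraries of low mitochondrial share it was 0.73, the opposite direction, a value that rests on the single WT library at 42.7 CPM. In each of the 4 genotypes with libraries on both sides of the mitochondrial gap, the libraries of low share had less Siglec1 than the others. Siglec1 had 58.2, 106 and 120 CPM in libraries labelled triple-mutant, the first of them on the low side.

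Siglece, an inhibitory Siglec of mouse myeloid cells, was low in all genotypes, between 0.832 and 5.24 CPM. It averaged 2.69 ± 1.52 CPM in double heterozygous cells and 2.73 ± 0.62 CPM in WT cells (SD, n = 3 each). The log2 fold change was 0.00 with a 95% interval of -1.33 to 1.33. Siglech, which pairs with DAP12 and marks microglia in the mouse brain as well as plasmacytoid dendritic cells, had counts in 4 of 18 libraries. These were 2 counts in double heterozygous replicate 2, 12 and 16 counts in Tbk1+/- replicates 1 and 3, and 14 counts in WT replicate 1. In the 14 libraries with 0 counts, 3 counts would have been 0.137 to 0.219 CPM. The 4 markers of plasmacytoid dendritic cells together reached at most 2.06 CPM, and Klk1 and Ly6d were at 0 in every library.

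Pirb encodes a receptor for class I major histocompatibility molecules. It had 121, 55.6 and 132 CPM in libraries labelled D138N-homozygous, against 29.2, 54.8 and 35.1 CPM in Tbk1+/- libraries, and the groups did not overlap. Pirb had 124, 77.3 and 101 CPM in libraries labelled triple-mutant and 48.3, 69.5 and 70.2 CPM in Tak1ΔM/+ libraries. Sirpa, the receptor for the CD47 signal that limits phagocytosis, had 2694, 1911 and 2497 CPM in libraries labelled D138N-homozygous, against 907, 1671 and 759 CPM in Tbk1+/- libraries. The Tbk1+/- libraries held the lowest Sirpa levels of the series, and the 15 libraries of the other genotypes lay between 1911 and 2786 CPM. Sirpa had 2786, 2238 and 2163 CPM in libraries labelled triple-mutant and 2170, 2434 and 2230 CPM in Tak1ΔM/+ libraries. Restricted to the libraries of higher mitochondrial share, to which all 3 Tbk1+/- libraries belong, the other 7 had 1911 to 2434 CPM.

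Pirb (log2 fold change 1.38, SE 0.292, adjusted p = 0.0461) and Sirpa (1.09, SE 0.214, adjusted p = 0.0411) were the 2 genes of the 9 called for the libraries labelled D138N-homozygous against Tbk1+/-, both higher, where 0.521% of all genes were called and 0.283% called higher. Without the 2 D138N-homozygous libraries whose Tbk1 level was near WT, which are also those of low mitochondrial share, the values were 0.49 for Pirb (adjusted p = 0.78) and 0.78 for Sirpa (adjusted p = 0.56). Those 2 libraries also had 0 reads of the Y-linked genes summed, while all 3 Tbk1+/- libraries had some, and with the Y-linked level as a covariate the values were 0.77 for Pirb (adjusted p = 0.347) and 0.85 for Sirpa (adjusted p = 0.198). Leaving out D138N-homozygous replicate 1 or 3, or Tbk1+/- replicate 1 or 3, ended both calls, and a fit of these 6 libraries alone called neither. In D138N-homozygous replicate 2, Pirb (55.6 CPM) was close to Tbk1+/- replicate 2 (54.8 CPM).

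Sirpa was also higher in double heterozygous than in Tbk1+/- cells. It had 2345, 2350 and 2521 CPM in double heterozygous libraries, and the log2 fold change was 1.11 (SE 0.214, adjusted p = 0.00243). Cd33, Pilra and Sirpa were the 3 genes called in that comparison, 1 higher and 2 lower, where the share over all genes was 14.7%, with 6.44% higher and 8.24% lower. The Sirpa call held in each of the 6 fits that left out 1 library and was lost with the mitochondrial share as a covariate (0.77, adjusted p = 0.188). The double heterozygous libraries all had a low share and the Tbk1+/- libraries a higher one, so the genotypes and the sides of the gap cannot be told apart in this comparison. Pirb had 69.0, 70.8 and 76.1 CPM in double heterozygous libraries, above all 3 Tbk1+/- libraries, at 0.86 on the log2 scale (adjusted p = 0.0555), which was not called. Against WT, Sirpa in double heterozygous libraries was 0.24 on the log2 scale (95% interval -0.22 to 0.70) and not called, although the groups did not overlap. All 3 Tbk1+/- libraries lay below all WT libraries for Sirpa (1932, 1956 and 2232 CPM in WT) and for Pirb (84.1, 62.8 and 103 CPM in WT).

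None of the 9 was called for Tbk1+/- against WT by edgeR, where 0.0521% of all genes were called. At an unadjusted p under 0.05 there were 2, Sirpa (log2 fold change -0.87, adjusted p = 0.167) and Pirb (-1.07, adjusted p = 0.234). DESeq2 called both, with adjusted p of 0.0103 for Sirpa and 0.035 for Pirb, and limma-voom called 0. None of the 9 was called for Tak1ΔM/+ against WT (0.0149% of all genes), with 0 at an unadjusted p under 0.05 and 0 by DESeq2 or limma-voom. None was called for the libraries labelled D138N-homozygous against WT, where 0% of all genes were called. There Cd33 had the 1 unadjusted p under 0.05 (log2 fold change -1.17, 95% interval -1.96 to -0.38), its 3 libraries lay below the 3 WT libraries, and DESeq2 and limma-voom called 0. None was called for the libraries labelled triple-mutant against WT (0% of all genes), with 0 at an unadjusted p under 0.05 and 0 by DESeq2 or limma-voom. In the test of non-additivity 1.75% of all genes and 0 of the 9 were called by edgeR. Cd33, Pirb, Sirpa and Lilrb4a had an unadjusted p under 0.05, DESeq2 called Sirpa and Pirb, and limma-voom called 0.

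Lilrb4a, an inhibitory receptor of the leukocyte immunoglobulin-like family, varied widely within genotypes. It had 109, 98.2 and 82.1 CPM in double heterozygous libraries and 43.8, 52.8 and 197 CPM in WT libraries, the highest of which was the WT library of low mitochondrial share. Across the series, the 8 libraries of low mitochondrial share had 82.1 to 197 CPM and the other 10 had 28.7 to 61.3 CPM, with no overlap. In all 4 genotypes with libraries on both sides, the low-share libraries were the higher ones. Libraries labelled triple-mutant had 102, 38.9 and 35.6 CPM, and Tak1ΔM/+ libraries had 107, 31.5 and 28.7 CPM. Lilrb4a was called in no comparison of the edgeR fit over 18 libraries, though some alternative fits called it. Its log2 fold change in double heterozygous against WT cells was -0.02 (95% interval -1.23 to 1.18). Within the 8 libraries of low mitochondrial share, a split chosen after seeing the data, it was -1.07 against the single WT library at 197 CPM, and Pirb was at -0.55. The spread in that fit comes from the other genotypes, so these values rest on 1 WT library. The near copy of Lilrb4a, named Lilr4b in the annotation, averaged 332 CPM in double heterozygous and 322 CPM in WT cells.

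**Figure D3:**
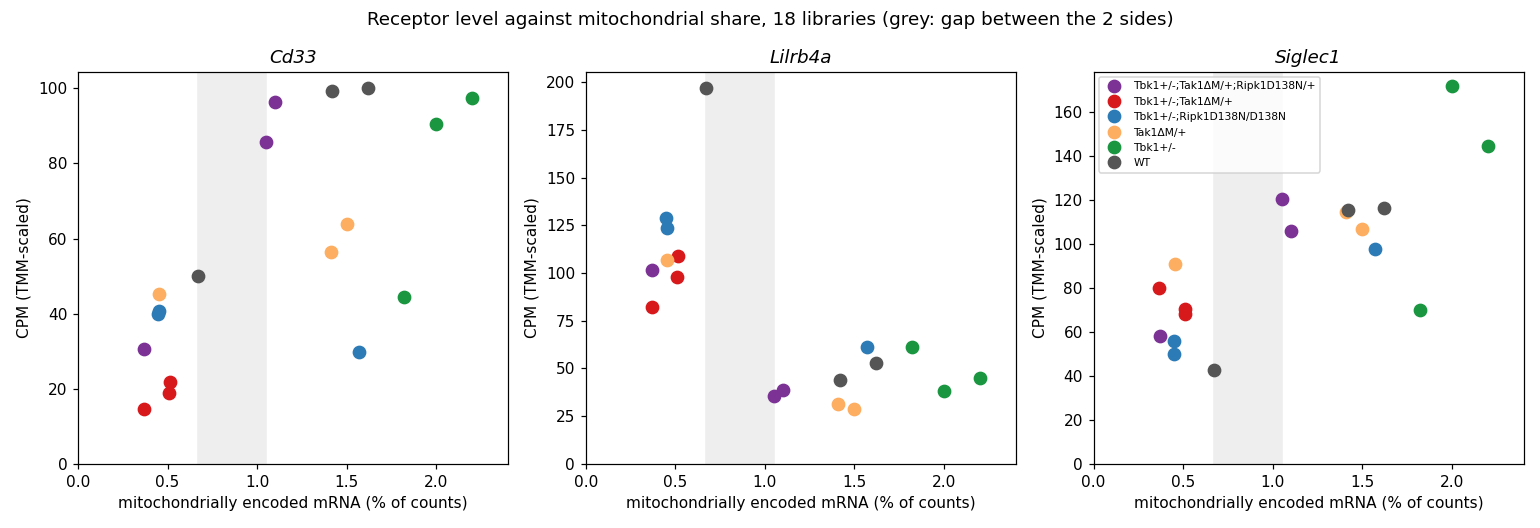
Level of Cd33, Lilrb4a and Siglec1 (y axes, TMM-scaled CPM) against the share of counts from mitochondrially encoded mRNAs (x axis, percent) in the 18 libraries, coloured by genotype. The grey band is the gap between 0.671% and 1.05%. Lilrb4a is at 82.1 CPM or above left of the band and at 61.3 CPM or below right of it, and the double heterozygous libraries are the lowest for Cd33 on the left.

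Cd200r1, whose product receives the CD200 signal from neurons and other cells, and Cd300a, a receptor for phosphatidylserine and phosphatidylethanolamine, were not called in any comparison of the same fit. Some alternative fits called Cd200r1. Cd200r1 had 108, 111 and 74.8 CPM in double heterozygous libraries and 167, 149 and 113 CPM in WT libraries. The groups did not overlap, and the log2 fold change was -0.55 (95% interval -1.23 to 0.14, adjusted p = 0.349). As for Siglec1, the libraries of low mitochondrial share were the lower ones in all 4 genotypes with both sides, and over the series they had 74.0 to 113 CPM against 115 to 208 CPM in the others. Cd300a was the steadiest of the 10, with a highest level 1.82 times its lowest. It averaged 203 ± 4.35 CPM in double heterozygous and 184 ± 15.2 CPM in WT cells (SD, n = 3 each), with a log2 fold change of 0.14 (95% interval -0.25 to 0.52).

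For some of the genes the count is uncertain because sequence is shared. Of the windows of 50 bases in their annotated transcripts, 46.7% of those of Lilrb4a and 34.0% of those of Pirb were also found in transcripts of other genes, chiefly the overlapping gene model Gm49339 for Lilrb4a, which had 0 counts, and the predicted gene Gm14548 for Pirb. The share was 7.57% for Pilra, mostly with Pilrb1, 3.18% for Cd300a, 1.16% for Cd200r1, 1.33% for Siglec1 and 0.394% for Cd33. No such window was shared for Sirpa or Siglece. How reads with several matches were counted is not given in the sources used here.

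The activating relatives and adaptors were described next, from a list of 23 genes of which 21 were tested. In double heterozygous against WT cells 4 of the 21 were called, all lower, beside 3.9% of all genes called lower, and the median log2 fold change was -0.27 over the list. Clec5a, a DAP12-coupled lectin receptor, averaged 14.5 ± 1.45 CPM in double heterozygous and 58.4 ± 11.5 CPM in WT cells (log2 fold change -2.02, adjusted p = 0.000611). Cd200r4, the activating relative of Cd200r1, averaged 37.6 ± 3.27 CPM in double heterozygous and 129 ± 47.3 CPM in WT cells (-1.79, adjusted p = 0.00299). As for Cd200r1, the low-share libraries had less Cd200r4 in each genotype with libraries on both sides of the mitochondrial gap. The WT library of low share had 74.9 CPM and the other WT libraries 159.5 and 153.8 CPM, while all double heterozygous libraries were on the low side. Sirpb1c, an activating relative of Sirpa, averaged 3.47 ± 0.626 CPM in double heterozygous and 12.2 ± 3.09 CPM in WT cells (-1.81, adjusted p = 0.0137). Cd300ld, of the Cd300 family, averaged 37.4 ± 3.08 CPM in double heterozygous and 57.0 ± 2.14 CPM in WT cells (-0.61, adjusted p = 0.0204). The groups did not overlap for any of these 4. They were named because they were called in this comparison, and the share of all genes without overlap was not counted, so this is no separate support. So Cd200r4 and Sirpb1c were called lower in this comparison while their inhibitory relatives Cd200r1 and Sirpa were not called, and the difference between relatives was not tested.

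The adaptor gene Tyrobp averaged 1358 CPM in double heterozygous and 1372 CPM in WT cells (log2 fold change -0.02, adjusted p = 0.969). Fcer1g, called in the test across the 6 genotypes (adjusted p = 0.0486), averaged 832 ± 52.8 CPM in double heterozygous cells, 1231 ± 130 CPM in Tbk1+/- cells and 1003 ± 60.2 CPM in WT cells (SD, n = 3 each). Between double heterozygous and Tbk1+/- cells its log2 fold change was -0.57 (adjusted p = 0.0026), and against WT it was -0.27 (adjusted p = 0.166). In that comparison with Tbk1+/-, 8 of the 21 were called, 2 higher and 6 lower, beside 6.44% and 8.24% of all genes. In libraries labelled triple-mutant against double heterozygous ones 4 of the 21 were called, all higher, beside 1.84% of all genes: Clec5a (1.55), Cd200r4 (1.47), Sirpb1c (1.64) and Cd300ld (0.68), on the log2 scale.

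**Figure D4:**
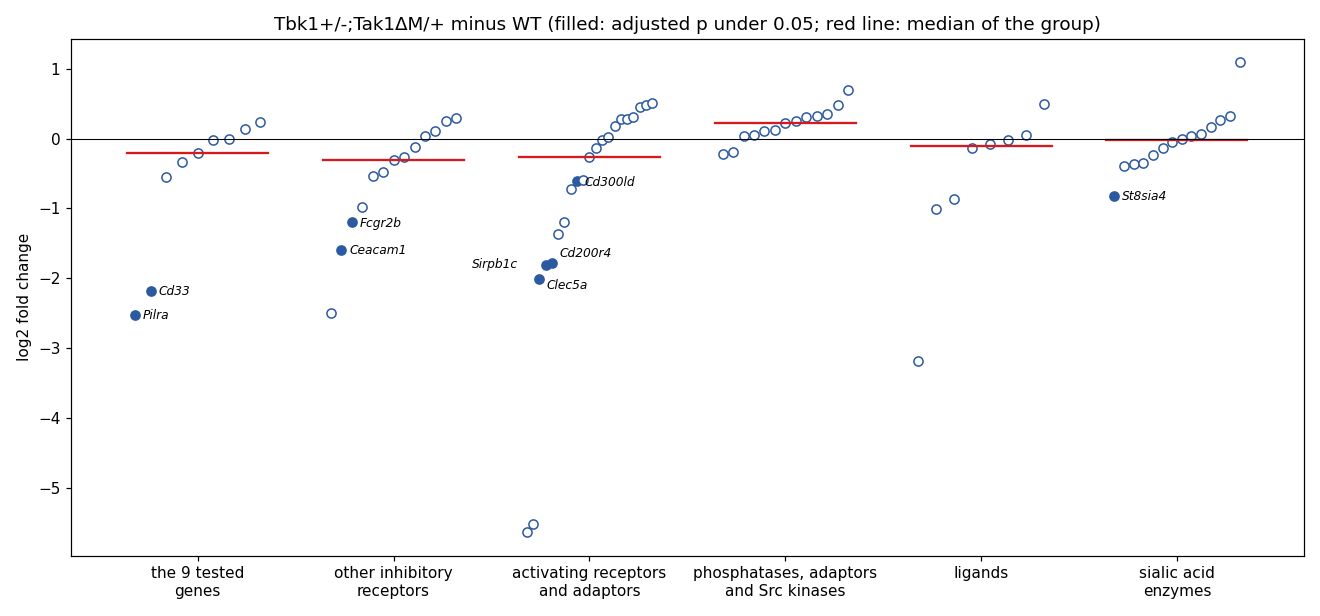
Log2 fold changes in double heterozygous against WT cells (y axis) for the 9 tested genes and for 5 related groups of genes (x axis). Each point is 1 gene, filled points passed an adjusted p of 0.05 and are named, and red lines are medians. All 9 filled points are below 0, and the open points furthest below 0 did not pass the test.

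Other inhibitory receptors were taken from a list of 15 genes, 13 of which were tested. In double heterozygous against WT cells 2 of the 13 were called, both lower, beside 3.9% of all genes called lower, and the median log2 fold change was -0.31. Fcgr2b, the inhibitory Fcγ receptor, had 257, 239 and 256 CPM in double heterozygous libraries and 705, 669 and 345 CPM in WT libraries (-1.19, adjusted p = 0.0364). Ceacam1, a cell adhesion molecule with an inhibitory tail, had 1.06, 2.48 and 3.48 CPM in double heterozygous libraries and 6.96, 8.43 and 5.80 CPM in WT libraries (-1.59, adjusted p = 0.0265). Both were called higher in libraries labelled triple-mutant than in double heterozygous ones (1.26 for Fcgr2b and 1.76 for Ceacam1). The WT library of low mitochondrial share had the lowest level of both genes among the WT libraries. In double heterozygous against Tbk1+/- cells 4 of the 13 were called, all lower, beside 8.24% of all genes called lower.

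Of 13 downstream phosphatases, adaptors and Src-family kinases tested, 0 were called in double heterozygous against WT cells, beside 6.07% of all genes, with a median log2 fold change of 0.23. Ptpn6 averaged 357 CPM in double heterozygous and 329 CPM in WT cells (0.12, adjusted p = 0.704), and Inpp5d averaged 195 CPM in double heterozygous and 228 CPM in WT cells (-0.22, adjusted p = 0.277). In double heterozygous against Tbk1+/- cells 4 of the 13 were called, all higher, beside 6.44% of all genes called higher. Csk, the kinase that holds Src-family kinases inactive, was called in the test across the 6 genotypes (adjusted p = 0.0472). It averaged 65.8 ± 3.93 CPM in double heterozygous cells and 70.0 ± 9.19 CPM in libraries labelled D138N-homozygous, against 43.2 ± 8.54 CPM in Tbk1+/- cells (SD, n = 3 each). Csk was called higher than in Tbk1+/- in both (log2 fold changes 0.61 and 0.70). As for Sirpa and Pirb, all 3 Tbk1+/- libraries lay below the WT libraries, which averaged 64.3 ± 7.38 CPM.

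None of the 8 ligand genes tested was called in double heterozygous against WT cells, beside 6.07% of all genes. Cd47 averaged 234 CPM in double heterozygous and 256 CPM in WT cells (log2 fold change -0.13, adjusted p = 0.704), and Cd200 averaged 1.08 CPM in double heterozygous and 2.24 CPM in WT cells. Ptpn6, Inpp5d, Tyrobp, Cd47, Cd200, Pilrb1 and Pilrb2 were named for their roles after their values were seen. Of 14 genes of sialic acid synthesis, transfer and removal tested, 1 was called, a share near the 6.07% of all genes called in this comparison. This was St8sia4, a polysialyltransferase, with 148, 125 and 99.4 CPM in double heterozygous libraries and 192, 236 and 229 CPM in WT libraries (-0.82, adjusted p = 0.0267).

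The 5 genes whose pattern over the 18 libraries was most like that of Cd33 were Clec4d (Pearson r = 0.918), Dap (0.917), Cd200r4 (0.913), Npy (0.911) and Map1lc3b (0.909), with r taken on log2(CPM + 1). These values describe libraries that share genotypes and the sides of the mitochondrial gap. Spearman's rho over the same libraries was 0.934 for Clec4d, 0.839 for Dap, 0.905 for Cd200r4 and 0.849 for both Npy and Map1lc3b. Clec4d, a lectin receptor, averaged 797 ± 22.1 CPM in double heterozygous and 1426 ± 133 CPM in WT cells. Npy averaged 19.9 ± 3.01 CPM in double heterozygous and 83.8 ± 40.0 CPM in WT cells (SD, n = 3 each).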

How the data were processed

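Smart-seq2 libraries were made from oligo(dT)-primed RNA, per the labels' protocols. The authors deposited raw read counts per gene for the 18 libraries in 1 table. Per the submitters' processing notes reads were aligned with STAR and counted with featureCounts on mm10, while the labels' protocol names RSEM, and versions are not given in the sources used here. Symbols, positions and exon lengths came from GENCODE M21, which matched 50462 of 50686 identifiers (the other 224 held at most 0.00437% of a library's counts). Genes kept by filterByExpr were tested with edgeR 4.0.16 in R 4.3.3 (TMM scaling, 1 quasi-likelihood fit over 6 genotypes, Benjamini-Hochberg adjustment, call at 0.05). Intervals of 95% use the fitted standard errors. All 10 genes are named, and list genes are named when called in double heterozygous against WT (up to 4 per list) or in the test across genotypes (up to 2 more). The members and lists were chosen with earlier results of these data known. The test was run on simulated data with 200 changed genes and the same spread for every gene. That setting differs from these libraries, so it does not show how often calls here are false. DESeq2 1.42.0, limma-voom (limma 3.58.1), other filters, covariates and left-out libraries were alternatives. Promoter windows came from RefSeq on GRCm38.p6. Protein sequences and counts of inhibitory motifs were not used here. Total counts of 8016559 to 22989116 limit the precision of genes with few reads, and the reads carry no molecular identifiers. 1 microglial marker is not reported here, and the marker sum leaves it out.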

Additional observations from a re-analysis of the deposited data

How the results depend on the processing

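No call of the receptor genes changed direction under any alternative run. The fits within the libraries of 1 side of the mitochondrial gap and without the 5 libraries of near-WT Tbk1 level were chosen after seeing the data. Counts are given first for the 9 receptors tested and then, where stated, for all genes. With no low-count filter Siglech was tested as well, so those counts are out of 10 receptors, and Siglech was among those called across genotypes. With DESeq2, 2 receptors were called for Tbk1+/- against WT and 2 for non-additivity, and over all genes 2277 were called across genotypes, 1421 for double heterozygous against WT, 733 against Tak1ΔM/+, 490 for D138N-homozygous against Tbk1+/- and 743 for triple-mutant against double heterozygous. With limma-voom 1 receptor was called for double heterozygous against WT, 0 against Tak1ΔM/+, 1 for D138N-homozygous against Tbk1+/- and 0 for triple-mutant against double heterozygous. With no low-count filter the receptors called were 8 across genotypes, 3 for Tbk1+/- against WT, 1 for Tak1ΔM/+ against WT, 2 for double heterozygous against Tak1ΔM/+ and 7 against Tbk1+/-, 5 for D138N-homozygous against Tbk1+/- and 1 against WT, 1 for triple-mutant against WT and 5 for non-additivity. All genes called without the filter were 2850 across genotypes, 1404 for double heterozygous against WT, 868 against Tak1ΔM/+, 754 for D138N-homozygous against Tbk1+/- and 864 for triple-mutant against double heterozygous. A filter at a mean of 5 CPM, which removes Pilra and Siglece, left 1 receptor called for double heterozygous against WT and 1 for triple-mutant against double heterozygous, and called 119 genes for D138N-homozygous against Tbk1+/-. Fitting only the libraries compared gave 5 receptors for double heterozygous against Tbk1+/-, 0 receptors and 0 genes for D138N-homozygous against Tbk1+/-, 1 receptor and 574 genes for triple-mutant against double heterozygous, and 1365 genes for double heterozygous against WT.

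With the mitochondrial share as a covariate the receptors called were 0 across genotypes, 1 for double heterozygous against WT, 0 against Tak1ΔM/+, 0 against Tbk1+/-, 0 for D138N-homozygous against Tbk1+/- and 1 for triple-mutant against double heterozygous. All genes called were then 207 across genotypes, 211 for double heterozygous against WT, 158 against Tak1ΔM/+, 140 against Tbk1+/- and 1 for D138N-homozygous against Tbk1+/-. With the Y-linked level as a covariate the receptors called were 3 for double heterozygous against Tak1ΔM/+, 5 against Tbk1+/-, 0 for D138N-homozygous against Tbk1+/-, 1 for triple-mutant against double heterozygous and 4 for non-additivity, and the genes called were 1525 across genotypes, 876, 4 and 684 in the comparisons of double heterozygous with Tak1ΔM/+, D138N-homozygous with Tbk1+/- and triple-mutant with double heterozygous. Within the 8 libraries of low share 3 receptors were called for Tak1ΔM/+ against WT, 5 for double heterozygous against WT and 1 for triple-mutant against double heterozygous, with 1 library each of triple-mutant, Tak1ΔM/+ and WT. For D138N-homozygous against Tbk1+/-, the 10 libraries of higher share gave 0 receptors and 1 gene, and leaving out D138N-homozygous replicates 1 and 3 gave 0 receptors and 0 genes. The causes of these changes were not tested.

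Same-numbered libraries of different genotypes did not deviate together (correlations from -0.194 to 0.141, 5 of 45 above 0.1, and 8 of 18 libraries closest to their own number). With the replicate number as a block, 2 receptors were called across genotypes, and 0 receptors and 35 genes for D138N-homozygous against Tbk1+/-.

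Leaving out 1 library at a time gave 0 to 4 receptors across genotypes, 0 to 2 for Tbk1+/- against WT, 1 to 2 for double heterozygous against WT, 0 to 1 against Tak1ΔM/+, 2 to 5 against Tbk1+/-, 0 to 3 for D138N-homozygous against Tbk1+/-, 0 to 2 for triple-mutant against double heterozygous and 0 to 3 for non-additivity. All genes called ranged from 320 to 1336 across genotypes, 288 to 614 for double heterozygous against WT, 111 to 568 against Tak1ΔM/+, 1071 to 2213 against Tbk1+/-, 2 to 607 for D138N-homozygous against Tbk1+/- and 87 to 435 for triple-mutant against double heterozygous. Depth limits Siglech, Siglece and Pilra, with 44, 763 and 1234 counts over the series.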
